A study of Mus musculus with 9 samples.

Results

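The genes described here are the subunits of the mouse proteasome and the proteins that assemble, activate or inhibit it, apart from the immunoproteasome subunits. They were taken by symbol, as every gene whose symbol begins with Psma, Psmb, Psmc, Psmd, Psme, Psmf or Psmg, without Psmb8, Psmb9 and Psmb10. Of 18194 genes with a probe set that names them alone, 46 met this rule, and 45 of the 46 were among the 12009 genes tested because their brightest probe set reached a log2 value of 4 on 3 or more of the 9 arrays. The gene left out by that minimum was Psmb11, the beta subunit of the thymus, which lay at 2.32 to 2.39 on all 9 arrays. Psma8 passed through its 6 fragment arrays, at 7.87 or above, and lay under 4 on the 3 rest of brain arrays, while the other kept genes were above 4 on all 9 arrays. Psme2 and Psme2b had no probe set that names them alone and were not analysed here. By role, the 45 genes were 8 of the 20S alpha ring, 7 of the 20S beta ring, 6 ATPases and 11 other subunits of the 19S particle, 7 assembly chaperones, 4 activators or inhibitors, and 2 genes that share the prefix but are no subunits, Psmc3ip and Psme3ip1.

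RNA from mouse brain was measured on short oligonucleotide arrays, with 3 samples in each of 3 groups and 1 array per sample. Embryonic fragments were microvascular fragments, short pieces of small vessels, of NMRI embryos at embryonic day 18.5, and rest of brain was the brain tissue of NMRI embryos of that age after the fragments were taken away. Adult fragments were microvascular fragments of 2 male mice and 1 female aged 1 year, of mixed C57/SV129 background. RNA was extracted with the RNeasy Micro Kit from embryos and with the RNeasy Mini Kit from adults, so age, strain and kit cannot be told apart between the ages. Neither the sex of the embryos nor how fragments were isolated is given in the labels, and for replicate 3 of rest of brain the description and the title name different embryonic days. A level is the deposited log2 value, a difference is one of group means on that scale, given ± the fit's standard error (SE), and a gene was called at a limma adjusted p under 0.05 over all 12009 genes.

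The proteasome is the cell's main protease for proteins tagged with ubiquitin. Its 20S core is a barrel of stacked rings, with the alpha rings as gates and the proteolytic sites inside the beta rings, on Psmb5, Psmb6 and Psmb7. The 19S particle caps the barrel, binds the ubiquitin chain, removes it and threads the protein in with its ring of ATPases. Under interferon the catalytic subunits can be exchanged for Psmb8, Psmb9 and Psmb10, and immune cells are known for carrying this immunoproteasome. When proteasome capacity falls short, the transcription factor Nfe2l1 raises the subunit genes together through antioxidant response elements.

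The markers went with the labels. All 7 endothelial markers were higher in fragments of both ages than in rest of brain, and all 6 neuronal markers were lower. Pecam1, under 4 on all rest of brain arrays, passed the minimum through its fragment arrays alone, and its difference from rest of brain is a description. Fragments were not pure endothelium: all 6 pericyte and all 3 smooth muscle markers were at 4 or above on every fragment array of either age, and the summed level of the 3 smooth muscle markers was 12.04 to 12.78 in embryonic and 15.50 to 15.64 in adult fragments. All 4 measured markers of dividing cells were lower in adult than in embryonic fragments, with summed levels of 9.98 to 10.35 against 14.25 to 14.35. The summed level of the 6 neuronal markers was 15.84 to 16.08 in rest of brain, 10.98 to 12.05 in embryonic and 10.44 to 10.58 in adult fragments. Tubb3 and Rbfox3 were under 4 on all adult arrays and passed the minimum through the embryonic ones. Their differences from adult fragments are a description. Between the ages 3 of the 6 neuronal markers were lower and Stmn2 was higher by 1.09, while Snap25 and Syt1 were not called. Markers of microglia and macrophages, 6 in number, all exceeded rest of brain in embryonic fragments, with a median difference of 3.22, and 5 of 6 were higher in adult fragments than in rest of brain, with a median of 3.53. Among them Mrc1, a macrophage marker, was 28.7-fold lower in adult than in embryonic fragments, and Aif1 was at 8.27 on embryonic fragment replicate 1 against 10.79 and 10.77 on the other two. All 4 tested astrocyte markers rose from embryonic to adult fragments, among them Aqp4 by 2.37. Both tested oligodendrocyte markers rose too, Mbp by 3.48 and Mobp from under 4 to 4.57 to 5.97. Mobp passed the minimum through the adult arrays alone, so its rise is a description. Gfap, of the astrocyte list, and Mog, of the oligodendrocyte list, did not pass the minimum. The part of these differences in cell makeup in the results on proteasome genes was not tested, and in such bulk samples fewer cells of a type and less RNA per cell cannot be told apart.

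**Figure D1:**
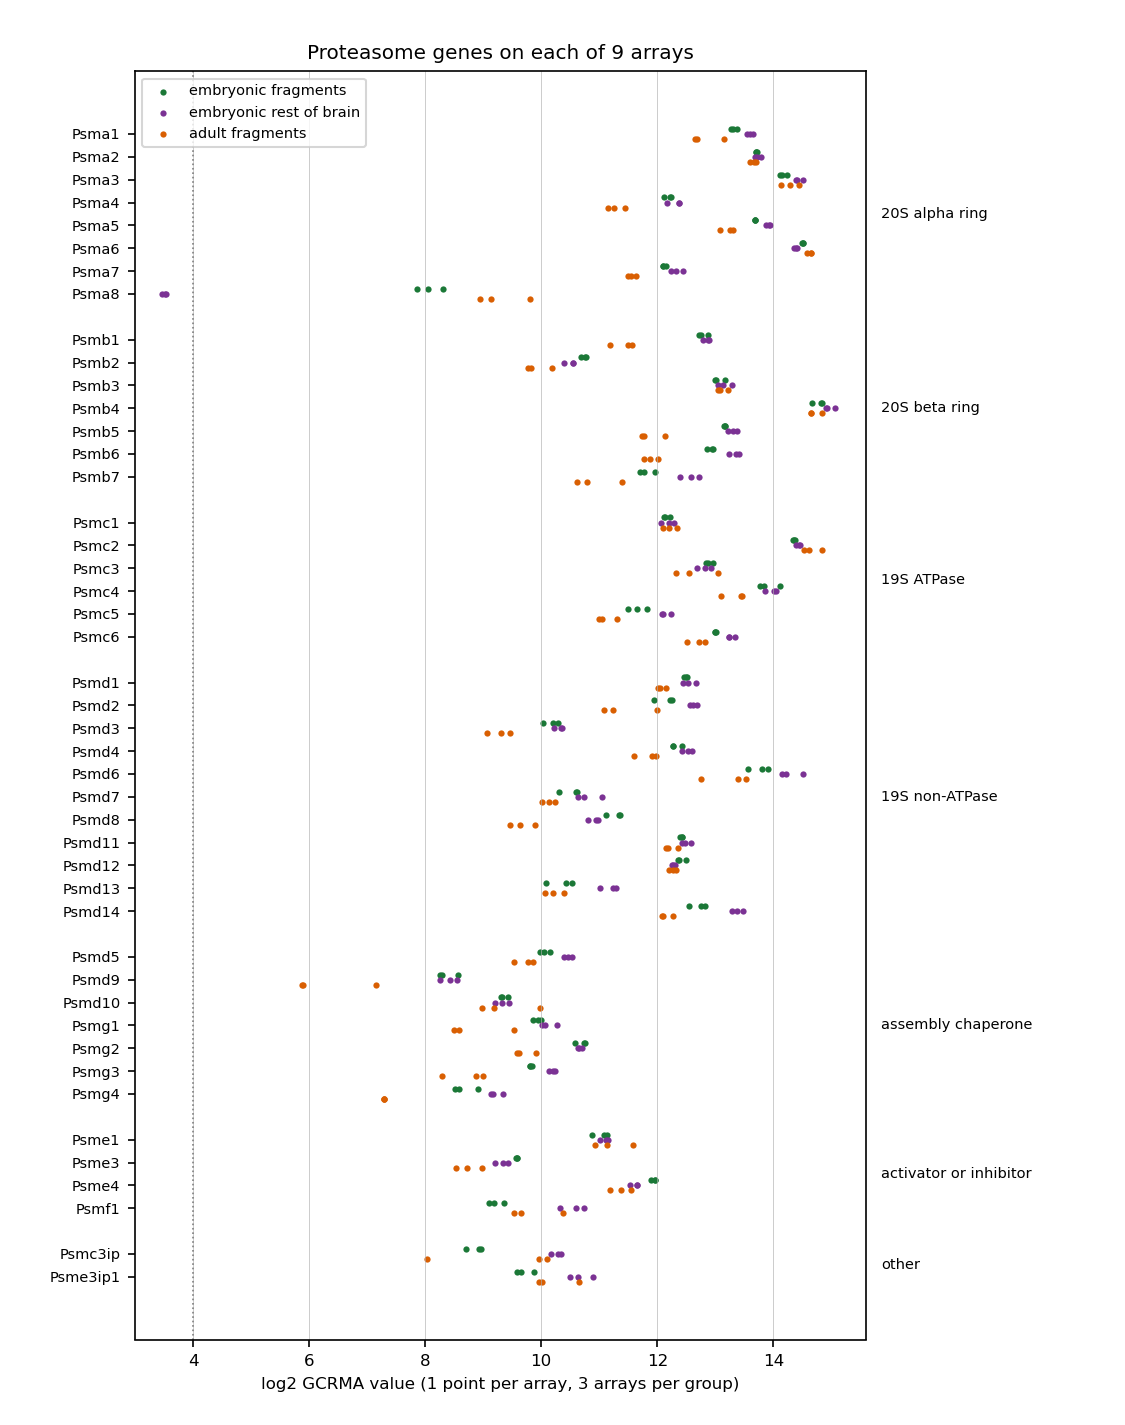
Deposited log2 values of the 45 proteasome genes, 1 point per array and 3 arrays per group, ordered by role. The dotted line marks 4; Psma8 in rest of brain is the 1 gene with points left of it, and most genes show the adult points to the left of the embryonic ones.

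Embryonic fragments and rest of brain are tissues of the same age, strain and kit, and 13 of 45 proteasome genes were called between them on their brightest probe set. In fragments 3 of 45 genes were higher, Psma8, Psmd8 and Psme4, and 10 were lower, against 28.9% of all tested genes higher and 37.2% lower, or 66.1% in either direction. The shares among proteasome genes were 6.67% higher and 22.2% lower, and 32 genes were not called. Falls of at least 2-fold were called in 2 genes, Psmc3ip and Psmf1, against 23.7% of all genes. All 3 fragment arrays lay above all rest of brain arrays in 7 genes and below them in 23, against 33.1% and 43.6% of all genes. The median difference was -0.14 for the proteasome genes and -0.10 for all genes, with the middle of the distribution from -0.40 to -0.03 against -0.94 to 0.63. The labels do not say that the replicate number pairs samples, and it was left out of this fit. With the number as a block in a fit of the 6 embryonic arrays 3 genes were higher and 15 lower, with Psma1, Psmc6, Psmd2, Psmd6 and Psmg3 added. The 6 embryonic arrays fitted without the block gave 5 higher and 17 lower, and the block on all 9 arrays gave 3 and 10. The added calls are thus not particular to the block.

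**Figure D2:**
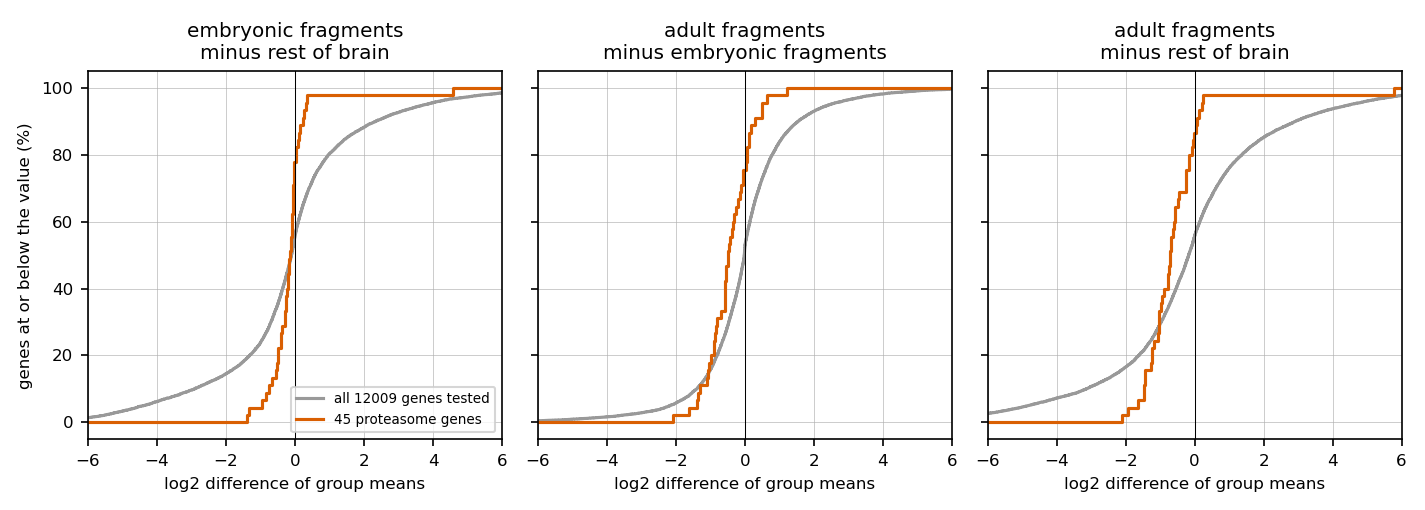
Cumulative share of genes (percent) by log2 difference of group means in the 3 comparisons, for the 45 proteasome genes (orange) and all 12009 tested genes (grey). The orange curve is steep near 0 for the embryonic tissues, with a median of -0.14, and over most of its height lies to the left of the grey curve for adult against embryonic fragments, with a median of -0.49 against -0.02.

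Among the alpha subunits, which form the gate of the core, Psma8 stood apart. Psma8 is the alpha subunit of the testis form of the core and takes the place of Psma7. Its level was 3.53, 3.47 and 3.51 in rest of brain, 8.05, 7.87 and 8.31 in embryonic fragments and 9.13, 8.94 and 9.81 in adult fragments. The 3 groups did not overlap, and all rest of brain arrays lay under 4. Taken against a value of 4, embryonic fragments were at least 16.9-fold and adult fragments at least 39.3-fold above rest of brain. Because Psma8 passed the minimum through its fragment arrays alone, these differences from rest of brain are a description. Adult fragments exceeded embryonic ones by 1.22 ± 0.22 (SE), or 2.33-fold (adjusted p = 0.00148). This call between the ages held under every alternative tried, but Psma8 has 1 probe set, so another choice of probe set could not change its values. Psma7 itself had a level of 12.12 ± 0.03 (SD, n = 3) in embryonic fragments, 12.33 ± 0.10 in rest of brain and 11.56 ± 0.07 in adult fragments.

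The 7 other alpha subunits were not called between the embryonic tissues, with adjusted p from 0.0508 to 0.833. Of all tested genes 66.1% were called in that comparison. Psma1, Psma3, Psma5 and Psma7 had differences of -0.28 to -0.22 with no overlap of the arrays. In adult fragments Psma1, Psma4, Psma5 and Psma7 fell below the embryonic fragments, by 0.47 to 0.90. The largest of these falls was that of Psma4, from levels of 12.23, 12.11 and 12.22 to 11.15, 11.26 and 11.44. Every adult Psma4 array was below every embryonic one, and the difference of -0.90 ± 0.12 had an adjusted p of 0.000205. The Psma1 fall of -0.49 ± 0.14 (adjusted p = 0.0163) was lost without embryonic fragments replicate 3 or adult replicates 1 or 2, where the adjusted p was 0.0518 to 0.0553, and turned to 0.81 with the mean over all Psma1 probe sets. Psma2, Psma3 and Psma6 were not called between the ages, with differences of -0.05, 0.12 and 0.12.

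The beta ring holds the catalytic sites. Here 2 of 7 genes (28.6%) were lower in embryonic fragments than in rest of brain, against 37.2% of all tested genes. Between the ages 5 of 7 (71.4%) were lower in adult than in embryonic fragments, against 29.7%. Psmb7, the trypsin-like subunit, had levels of 12.39, 12.58 and 12.72 in rest of brain, 11.77, 11.70 and 11.95 in embryonic fragments and 10.79, 10.62 and 11.39 in adult fragments. The 3 groups stood in that order with no overlap. The steps were -0.76 ± 0.20 (adjusted p = 0.00901) and -0.88 ± 0.20 (adjusted p = 0.00536), and adult fragments held 32.2% of the rest of brain value. Psmb6, the caspase-like subunit, had levels of 13.41, 13.24 and 13.36 in rest of brain, 12.86, 12.96 and 12.94 in embryonic fragments and 11.76, 11.87 and 12.01 in adult fragments. This order was again without overlap. The steps of Psmb6 were -0.42 ± 0.11 (adjusted p = 0.00688) and -1.04 ± 0.11 (adjusted p = 5.51e-05).

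Psmb5, the chymotrypsin-like subunit, differed between the ages only. It was at 13.37, 13.22 and 13.31 in rest of brain, 13.16, 13.17 and 13.17 in embryonic fragments and 11.73, 11.76 and 12.14 in adult fragments. All embryonic fragment arrays lay under the rest of brain arrays, but by a difference of -0.14 ± 0.13 that was not called (adjusted p = 0.369). Adult fragments lay far under both and held 41.0% of the embryonic fragment value (difference -1.29 ± 0.13, adjusted p = 4.44e-05). Psmb1, a noncatalytic beta subunit, had levels of 12.72, 12.87 and 12.74 in embryonic and 11.19, 11.49 and 11.57 in adult fragments, with 12.88, 12.79 and 12.88 in rest of brain. The embryonic tissues overlapped, and adult fragments were lower by 1.36 ± 0.12, the largest fall of the ring (adjusted p = 2.61e-05). Psmb2, also noncatalytic, fell by 0.81 ± 0.13 between the ages (adjusted p = 0.000771). Psmb3 and Psmb4 were not called in any comparison.

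The immunoproteasome subunits that can replace the 3 catalytic ones moved the other way. From rest of brain to embryonic to adult fragments, mean levels were 3.39, 6.57 and 10.28 for Psmb8, 3.48, 6.86 and 10.04 for Psmb9, and 7.61, 9.29 and 10.33 for Psmb10, each step called. Psmb8 and Psmb9 passed the minimum through their fragment arrays alone, so their differences from rest of brain are a description. Psmb8, which takes the place of Psmb5, was 13.1-fold higher in adult than in embryonic fragments while Psmb5 was 2.44-fold lower. Levels of different probe sets cannot be set against each other, so the share of each form cannot be read from these values.

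**Figure D3:**
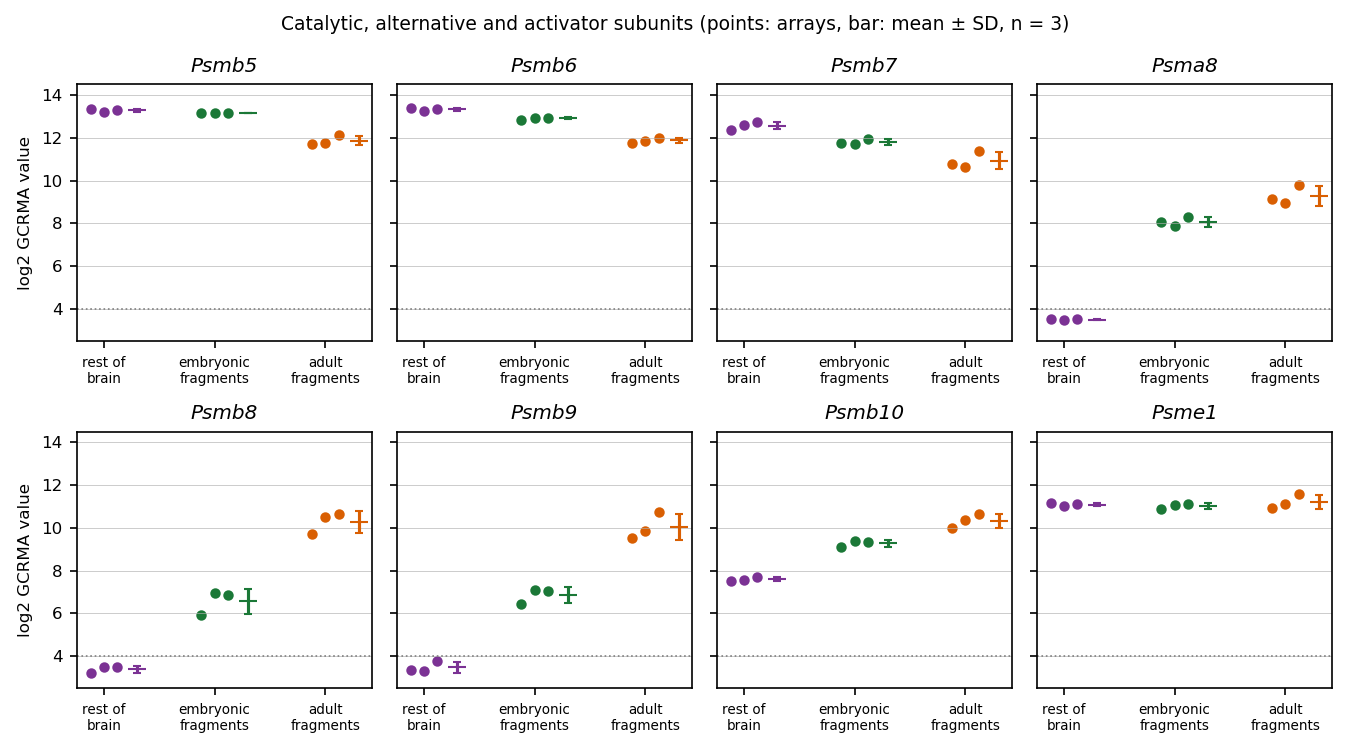
Deposited log2 values of the catalytic subunits Psmb5, Psmb6 and Psmb7, the testis subunit Psma8, the immunoproteasome subunits Psmb8, Psmb9 and Psmb10 and the activator subunit Psme1 (points: arrays; bars: mean ± SD, n = 3; dotted line: 4). From embryonic to adult fragments the catalytic subunits step down, Psma8 and the immunoproteasome subunits step up, and the Psme1 arrays overlap.

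Of the 6 ATPases of the 19S ring, 1 (16.7%) was lower in embryonic fragments than in rest of brain on the brightest probe set, against 37.2% of all tested genes. Between the ages 3 fell and 1 rose, where 29.7% of all tested genes fell and 27.4% rose. Psmc5 was at 12.09, 12.10 and 12.23 in rest of brain, 11.49, 11.65 and 11.83 in embryonic fragments and 11.05, 11.00 and 11.31 in adult fragments. The groups did not overlap, and the steps were nearly equal, -0.48 ± 0.13 (adjusted p = 0.00962) and -0.54 ± 0.13 (adjusted p = 0.0069). Psmc4 had levels of 14.11, 13.84 and 13.77 in embryonic fragments, 14.04, 13.85 and 14.01 in rest of brain, and 13.10, 13.46 and 13.44 in adult fragments. The embryonic tissues overlapped, and adult Psmc4 was lower by 0.57 ± 0.14 (adjusted p = 0.00833).

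Psmc6 fell by 0.31 ± 0.11 (adjusted p = 0.0353), but its other probe sets rose between the ages, by 0.42 and 0.75, and were lower in embryonic fragments than in rest of brain, by 1.23 and 1.48, where the brightest was not called. The fall was also lost without any single embryonic fragment array or adult replicates 2 or 3 (adjusted p up to 0.224). Psmc2 rose from 14.33, 14.36 and 14.37 to 14.61, 14.53 and 14.83, above rest of brain at 14.46, 14.39 and 14.44. The groups did not overlap, yet the difference of 0.30 ± 0.11 (adjusted p = 0.0366) lost its call under 13 alternatives, among them each embryonic fragment array, rest of brain replicates 1 and 2 and adult replicates 1 and 3 left out in turn, with adjusted p of 0.0506 to 0.468. Psmc1 and Psmc3 were not called in any comparison.

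The non-ATPase subunits of the 19S particle include those that bind and cut the ubiquitin chain. Between the embryonic tissues Psmd13 and Psmd14 were lower in fragments and Psmd8 higher, out of 11. These are 18.2% and 9.09%, against 37.2% and 28.9% of all tested genes. Psmd13, a structural subunit of the lid, had levels of 11.24, 11.00 and 11.29 in rest of brain, 10.08, 10.53 and 10.43 in embryonic fragments and 10.07, 10.21 and 10.40 in adult fragments. Fragments of both ages lay under rest of brain, by 0.83 ± 0.15 in embryos (adjusted p = 0.00121), and overlapped each other. Psmd14, the deubiquitinase of the lid, had levels of 13.29, 13.37 and 13.48 in rest of brain, 12.55, 12.75 and 12.83 in embryonic and 12.27, 12.09 and 12.09 in adult fragments. These 3 groups did not overlap, with steps of -0.67 ± 0.12 (adjusted p = 0.000788) and -0.56 ± 0.12 (adjusted p = 0.00311).

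Psmd8, a lid subunit, went up and then down along the same order. Its levels were 10.98, 10.81 and 10.95 in rest of brain, 11.34, 11.11 and 11.36 in embryonic fragments and 9.46, 9.63 and 9.90 in adult fragments. Embryonic fragments were above and adult fragments below rest of brain on every array. The rise of 0.36 ± 0.14 (adjusted p = 0.0468) was lost under 8 alternatives, among them without embryonic fragments replicates 1 or 3, any single rest of brain replicate or adult replicate 2, with adjusted p of 0.0527 to 0.134. The fall to adult fragments, -1.60 ± 0.14 or 3.04-fold (adjusted p = 1.93e-05), held under every alternative tried. Psmd8 too has 1 probe set, so another choice of probe set could not change its values.

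In all, 6 of the 11 non-ATPase subunits fell from embryonic to adult fragments, against 29.7% of all tested genes, and all 11 differences were negative. Besides Psmd8 and Psmd14 these were Psmd3 by 0.90 ± 0.13, Psmd2 by 0.70 ± 0.22, the ubiquitin receptor Psmd4 by 0.50 ± 0.13 and the scaffold subunit Psmd1 by 0.42 ± 0.10. The Psmd2 call (adjusted p = 0.0265), with overlapping arrays, was lost without embryonic fragments replicates 2 or 3 or adult replicates 1 or 2, where the adjusted p was at most 0.0875. The Psmd4 fall was -0.27 with the mean over its probe sets (adjusted p = 0.0659). That mean takes in a probe set under the minimum, at 2.79, while the other that passed was called lower, by 0.45. Psmd6 and Psmd7 had differences of -0.53 and -0.38 that missed the threshold (adjusted p = 0.0598 and 0.0527), and Psmd11, Psmd12 and Psmd13 had smaller ones, of -0.18, -0.14 and -0.12.

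The assembly chaperones, which build the rings and are not part of the finished particle, fell between the ages in 6 of 7 genes, with a median difference of -1.06. Of all tested genes 29.7% fell. Psmd9, a chaperone of the ATPase ring, had levels of 8.29, 8.26 and 8.57 in embryonic fragments, 8.42, 8.25 and 8.55 in rest of brain, and 5.89, 5.87 and 7.15 in adult fragments. The embryonic tissues overlapped, and the adult arrays were lower by 2.07 ± 0.32, or 4.19-fold, the largest fall of any proteasome gene (adjusted p = 0.000583). Adult replicate 3 was well above the other adult arrays. With the mean over all Psmd9 probe sets in place of the brightest, the difference was -0.23 and the call was lost (adjusted p = 0.17). The other Psmd9 probe sets, at means of 3.83 and 2.37, did not pass the minimum but enter that mean.

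Psmg1 to Psmg4 chaperone the assembly of the alpha ring. Psmg4 was at 9.14, 9.34 and 9.17 in rest of brain, 8.51, 8.91 and 8.59 in embryonic fragments and 7.29 on each of the 3 adult arrays. The groups did not overlap, with steps of -0.55 ± 0.13 (adjusted p = 0.00422) and -1.38 ± 0.13 (adjusted p = 2.81e-05). Psmg3 was at 10.23, 10.14 and 10.21 in rest of brain, 9.84, 9.81 and 9.81 in embryonic and 8.88, 8.29 and 8.99 in adult fragments. These arrays stood in the same order, but only the second step, -1.10 ± 0.17, was called (adjusted p = 0.000673), and with the mean over all its probe sets it was -0.29 (adjusted p = 0.0902).

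Psmg1 fell by 1.06 ± 0.25 and Psmg2 by 0.99 ± 0.12 between the ages, with no call between the embryonic tissues. Psmd5, another chaperone of the ATPase ring, was lower in embryonic fragments than in rest of brain by 0.40 ± 0.12 (adjusted p = 0.0142; 0.0526 without embryonic fragments replicate 2). It fell by a further 0.34 ± 0.12 in adults (adjusted p = 0.0313), a call lost without embryonic fragments replicates 1 or 3 or adult replicate 1. Psmd10, known as gankyrin, had differences of 0.03 in both comparisons and was not called.

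Activators open the gate in place of the 19S cap. Psme4, the large nuclear activator PA200, was at 11.65, 11.65 and 11.54 in rest of brain, 11.95, 11.96 and 11.90 in embryonic fragments and 11.55, 11.37 and 11.19 in adult fragments. Embryonic fragments were highest on every array. Their excess over rest of brain of 0.32 ± 0.11 (adjusted p = 0.0326) was lost without any single one of the 6 embryonic arrays (adjusted p up to 0.0896), and their excess over adult fragments of 0.57 ± 0.11 held under every alternative tried (adjusted p = 0.00262).

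Psme3, the subunit of the nuclear activator PA28 gamma, was at 9.57, 9.57 and 9.58 in embryonic fragments, 9.34, 9.20 and 9.42 in rest of brain and 8.73, 8.97 and 8.53 in adult fragments. Adult fragments were lowest, 0.83 ± 0.13 below the embryonic ones (adjusted p = 0.000647), and the embryonic tissues did not overlap but were not called apart (adjusted p = 0.118). Psme1, the interferon-inducible activator subunit PA28 alpha, was at 10.87, 11.09 and 11.13 in embryonic fragments, 11.16, 11.01 and 11.11 in rest of brain, and 10.93, 11.13 and 11.58 in adult fragments. All 3 groups overlapped, and Psme1 was not called in any comparison, with differences of -0.06 ± 0.17, 0.19 ± 0.17 and 0.12 ± 0.17.

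Psmf1, the inhibitor PI31, was at 10.61, 10.32 and 10.74 in rest of brain, 9.19, 9.10 and 9.35 in embryonic fragments and 9.53, 9.65 and 10.37 in adult fragments. Embryonic fragments were lowest on every array. They lay 1.34 ± 0.22 below rest of brain (adjusted p = 0.000657) and 0.63 ± 0.22 below adult fragments (adjusted p = 0.0383). The 3 other Psmf1 probe sets all have identifiers that do not mark probes shared between transcripts, unlike the chosen one. The brightest of these 3 gave 0.074 and -0.69. The other two had the signs of the chosen one, with -1.50 and 0.43 and, at a mean of 5.05, -1.20 and 1.45. The rise with age was also lost without adult replicate 3, rest of brain replicate 1 or any embryonic fragment array (adjusted p up to 0.105).

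The genes that share the prefix but are no subunits were both lower in embryonic fragments than in rest of brain. Psme3ip1, which binds the Psme3 activator, was at 10.63, 10.50 and 10.89 in rest of brain, 9.65, 9.58 and 9.87 in embryonic fragments and 10.02, 9.96 and 10.65 in adult fragments. Embryonic fragments were lowest on every array, 0.97 ± 0.20 below rest of brain (adjusted p = 0.00228). Psmc3ip, a factor of meiotic recombination, was at 10.28, 10.17 and 10.33 in rest of brain, 8.70, 8.93 and 8.96 in embryonic fragments and 9.97, 10.09 and 8.04 in adult fragments. The adult arrays of Psmc3ip spread widely, with replicate 3 far below the others. The embryonic difference of -1.40 ± 0.47 (adjusted p = 0.0269) was lost without any single one of the 6 embryonic arrays (adjusted p up to 0.0731).

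**Figure D4:**
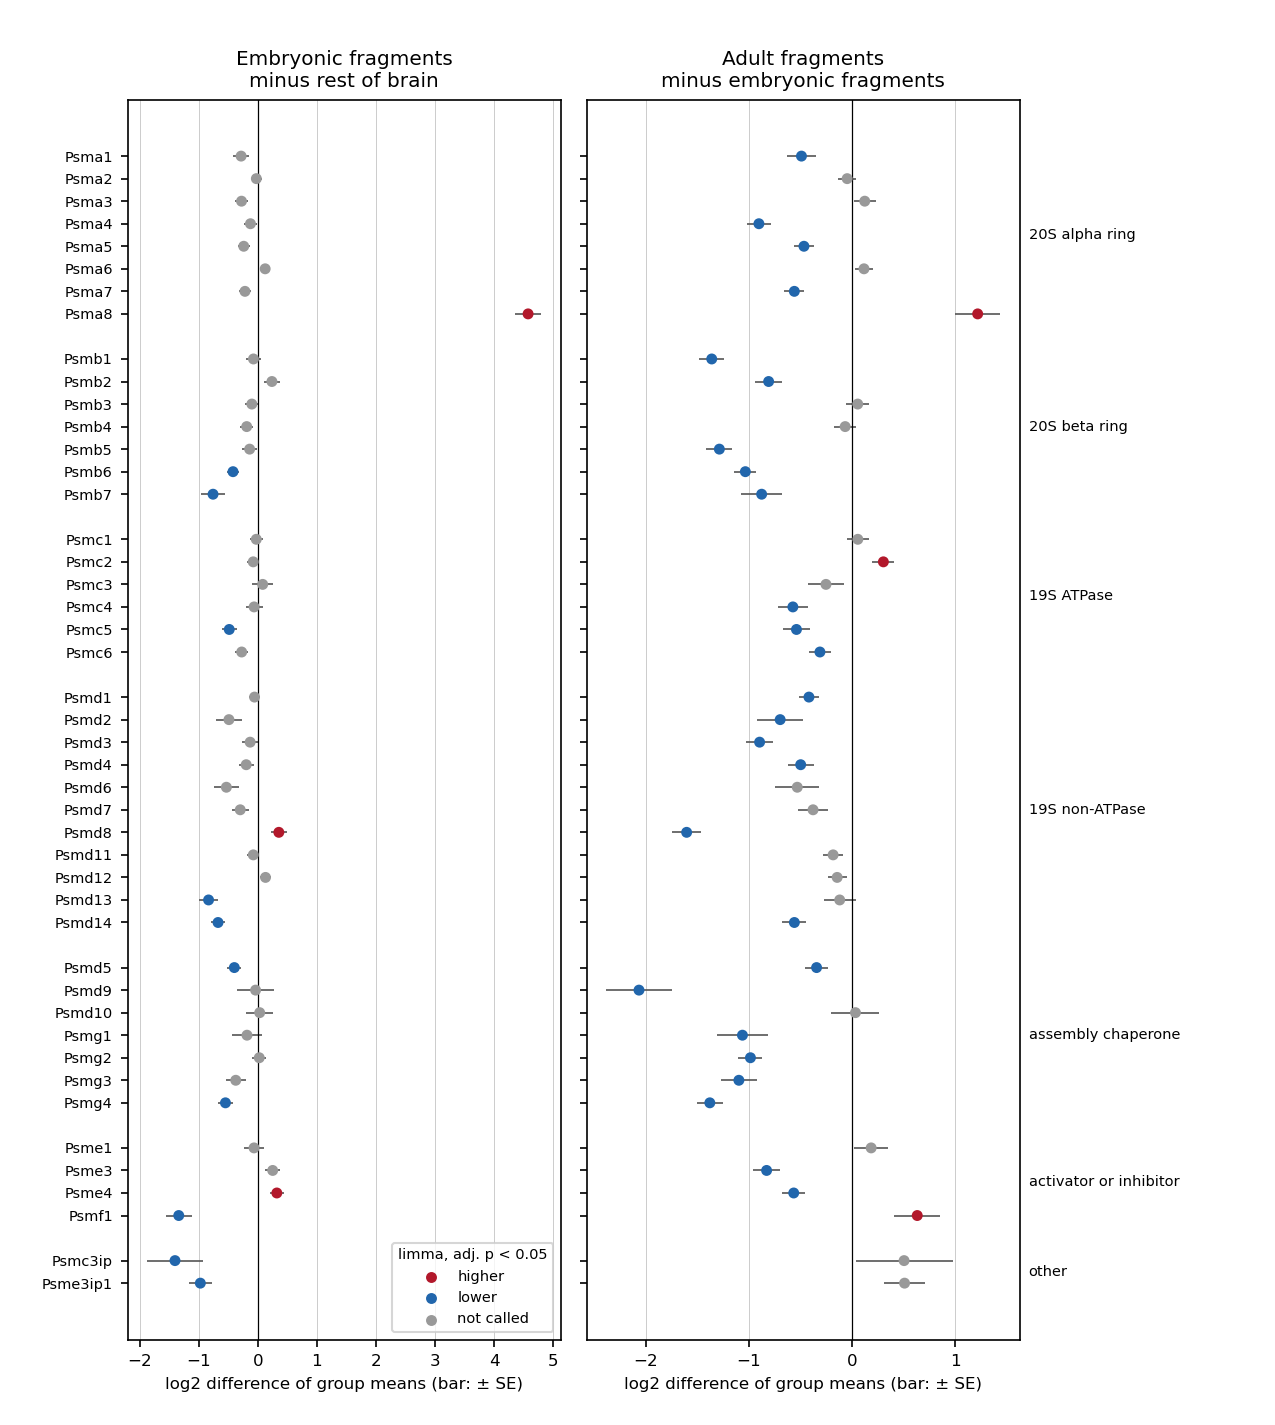
Log2 difference of group means ± SE for each of the 45 proteasome genes by role, in embryonic fragments minus rest of brain (left) and adult minus embryonic fragments (right), coloured by limma call. On the right 26 genes are called lower and 3 higher; on the left 10 are lower and 3 higher, with Psma8 far to the right in the left panel.

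Counted over all roles, 26 of 45 genes (57.8%) fell from embryonic to adult fragments and 3 rose, Psma8, Psmf1 and Psmc2. Of all tested genes 29.7% were lower and 27.4% higher, 57.1% in all. Every adult array lay below every embryonic fragment array in 29 of the 45 genes and above in 5, against 32.4% and 30.3% of all genes. The median difference was -0.49 for proteasome genes and -0.02 for all genes, and 34 of the 45 differences were negative. Falls of at least 2-fold were made by 8 genes (17.8%), near the 15.3% of all genes. These 8 were Psmd9, Psmd8, Psmg4, Psmb1, Psmb5, Psmg3, Psmg1 and Psmb6. Of the 26 lower calls 19 held under every alternative tried, and of the 3 higher calls that of Psma8. For genes with 1 probe set, among them Psma8 and Psmd8, the mean over probe sets could not change the values. Genes whose probe sets all have shared probes dropped out of the alternative without these.

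The falls were counted by the level of the probe set. Of the 4 genes with a mean of at least 14 over the 9 arrays, Psma3, Psma6, Psmb4 and Psmc2, only Psmc2 was called, and it was higher, while 36.2% of the 235 tested genes of that band were lower. In the bands below, 12 of 19 genes with a mean of 12 to 14 were lower, against 29% of all genes of that band. With a mean of 10 to 12 it was 8 of 12 against 31.5%, and with a mean under 10 it was 6 of 10 against 28.9%. Psma6 and Psmb4 had a dimmer probe set that was called lower, by 0.29 and 0.85.

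Several genes were measured by more than 1 probe set, and 29 further probe sets in 20 of the genes passed the minimum. From embryonic to adult fragments 20 of the 29 had the sign of the brightest probe set of their gene, 10 were called in its direction and 4 in the opposite one. The 4 were 1 of Psma1, higher by 2.85 at a mean of 4.91, both of Psmc6, and 1 of Psmf1. In 5 genes that were not called on the brightest probe set, Psma6, Psmb3, Psmb4, Psmd6 and Psmd11, another probe set was called lower. Between the embryonic tissues 22 of the 29 had the sign of the brightest one and 6 were called in its direction. In 4 genes not called on the brightest probe set another one was called. It was lower for Psma5 (-0.29), Psmd6 (-0.83) and both others of Psmc6 (-1.23 and -1.48), and higher for Psma3 (0.78, at a mean of 4.39). Against rest of brain adult fragments had such lower calls in Psmb3, Psmb4, Psmc3ip and Psme4 and a higher one in Psma3.

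**Figure D5:**
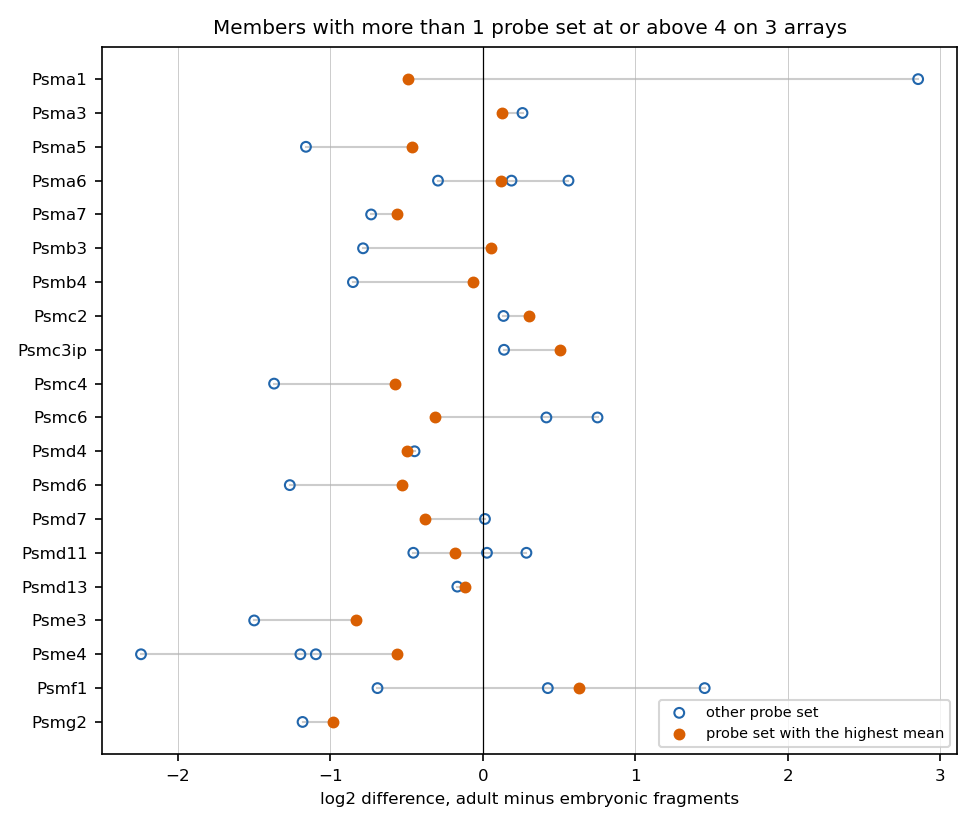
Log2 difference of adult minus embryonic fragments for every probe set of the proteasome genes with more than 1 at or above 4 on 3 arrays, with the brightest filled and the others open. Most points lie left of 0, while Psma1, Psmc6 and Psmf1 have probe sets called on both sides.

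The adult arrays differed from the embryonic ones in RNA measures too. The difference between the 3′ and 5′ control probe sets of beta-actin, which widens as transcripts are copied less fully, was 2.92, 2.59 and 1.88 on the adult arrays, 1.20 to 1.28 on the embryonic fragment arrays and 1.48 to 1.65 on the rest of brain arrays. For Gapdh it was 2.74, 2.42 and 2.59 on the adult arrays, 2.02 to 2.09 on the embryonic fragment arrays and 1.75 to 1.84 on the rest of brain arrays. Adult replicate 3 had the smallest actin difference of the adults and replicate 2 the smallest Gapdh difference. Replicate 3 was the highest adult array for 30 of 45 proteasome genes (66.7%) and for 51.1% of all tested genes. The part of RNA quality in the lower adult levels was not tested. The median SD over proteasome genes was 0.08 in either embryonic group and 0.18 in adult fragments.

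Adult fragments and rest of brain differ in tissue, age, strain and kit at once, and the comparison shares its samples with both others. Adult fragments were lower in 30 of 45 genes (66.7%) and higher in 2, Psma8 and Psma6, where 42.9% of all genes were lower and 33.1% higher, 76% in all. The median differences were -0.70 and -0.17. Falls of at least 2-fold were made by 15 genes (33.3%), near the 29.2% of all genes. All adult arrays lay below all rest of brain arrays in 31 genes and above them in 3, against 45% and 34.9% of all genes. The largest falls were those of Psmd9 (-2.10 ± 0.32), Psmg4 (-1.93 ± 0.13), Psmb7 (-1.63 ± 0.20), Psmg3 (-1.47 ± 0.17) and Psmb6 (-1.45 ± 0.11). Of the 11 non-ATPase subunits 10 were lower, all but Psmd12 (-0.01 ± 0.09). With the mean over all its probe sets, also those under the minimum, the Psmd9 call was lost here too (adjusted p = 0.129).

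Psma6, an alpha subunit, was at 14.38, 14.35 and 14.41 in rest of brain, 14.51, 14.52 and 14.49 in embryonic fragments and 14.65, 14.64 and 14.58 in adult fragments. The arrays of the groups did not overlap, but the difference between adult fragments and rest of brain was small, 0.24 ± 0.09 (adjusted p = 0.0313), and was lost without rest of brain replicates 1 or 2 or adult replicates 1 or 2. Its brightest probe set without shared probes gave -0.23 (adjusted p = 0.0478). The Psmd11 call, -0.26 ± 0.10 (adjusted p = 0.0381), was lost under 13 alternatives, among them each embryonic fragment array, rest of brain replicates 1 and 3 and adult replicates 1 and 3 left out in turn. That of Psmf1, -0.70 ± 0.22 (adjusted p = 0.0179), was lost without rest of brain replicates 1 or 3 or adult replicates 1 or 2 (adjusted p up to 0.0647).

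Psma2, Psmb3, Psmc1, Psmc3, Psmd10, Psmd12 and Psme1 were called in none of the 3 comparisons, as were Psma3 and Psmb4. Psma2 stayed between mean levels of 13.66 ± 0.05 and 13.73 ± 0.06, and Psmc1 between 12.16 ± 0.05 and 12.21 ± 0.12. Psmd12 had means of 12.41 ± 0.08, 12.28 ± 0.02 and 12.26 ± 0.06 in embryonic fragments, rest of brain and adult fragments. This holds for the brightest probe sets, since Psmb3 and Psmb4 had others that were lower in adult fragments, and Psma3 had one, at a mean of 4.39, that was higher than rest of brain in embryonic (0.78) and adult fragments (1.04).

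Upstream sequence was examined because 26 of the 45 genes fell between the ages and subunit genes are known targets of Nfe2l1. RefSeq promoters of the GRCm38.p6 build, 250 bases before to 50 after each start, were found for 37 of the 45 genes, and none for Psma8, Psmb1, Psmb2, Psmb7, Psmc3, Psmd3, Psmd7 and Psmg2. The antioxidant response element core TGACNNNGC, searched on both strands, was present in 6 of 37 genes (16.2%) and in 14% of 27025 genes with such a window. The 6 were Psmb5, Psmb6, Psmd9, Psmc6, Psmd12 and Psme4. The CCAAT box, searched on both strands, was in 14 of 37 (37.8%) against 41.1%. No overlap between matches of these motifs was looked for.

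The windows of 3 genes with falls of at least 2-fold that hold the core, Psmb5, Psmb6 and Psmd9, are shown beside that of Psmd12, which holds it and was not called in any comparison. Each runs 5′ to 3′ along the strand of the gene with the match in capitals, which in Psmd12 is on the opposite strand. Counted from the start of the gene, the matches begin at -47 in Psmb5, -9 in Psmb6, -31 in Psmd9 and -247 in Psmd12. They are matches of letters and do not show that a factor binds there.
Psmb5 (chr14:54617946-54618245, minus strand): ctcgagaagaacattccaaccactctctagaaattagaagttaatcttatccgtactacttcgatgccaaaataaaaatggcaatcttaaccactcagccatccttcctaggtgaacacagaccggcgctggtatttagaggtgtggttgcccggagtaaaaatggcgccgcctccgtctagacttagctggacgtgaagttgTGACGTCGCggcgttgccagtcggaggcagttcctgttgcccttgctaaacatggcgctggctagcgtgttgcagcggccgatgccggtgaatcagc
Psmb6 (chr11:70525107-70525406, plus strand): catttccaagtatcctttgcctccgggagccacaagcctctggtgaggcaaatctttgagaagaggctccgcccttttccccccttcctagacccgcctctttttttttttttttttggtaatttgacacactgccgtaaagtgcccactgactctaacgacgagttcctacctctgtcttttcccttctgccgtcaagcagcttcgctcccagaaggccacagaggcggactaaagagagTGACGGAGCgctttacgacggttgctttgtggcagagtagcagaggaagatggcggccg
Psmd9 (chr5:123227940-123228239, plus strand): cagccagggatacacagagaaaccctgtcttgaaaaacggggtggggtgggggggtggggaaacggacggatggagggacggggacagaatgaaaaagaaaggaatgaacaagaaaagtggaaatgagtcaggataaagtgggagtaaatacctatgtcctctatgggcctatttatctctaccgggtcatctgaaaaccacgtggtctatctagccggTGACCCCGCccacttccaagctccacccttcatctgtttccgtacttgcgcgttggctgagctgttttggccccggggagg
Psmd12 (chr11:107479278-107479577, plus strand): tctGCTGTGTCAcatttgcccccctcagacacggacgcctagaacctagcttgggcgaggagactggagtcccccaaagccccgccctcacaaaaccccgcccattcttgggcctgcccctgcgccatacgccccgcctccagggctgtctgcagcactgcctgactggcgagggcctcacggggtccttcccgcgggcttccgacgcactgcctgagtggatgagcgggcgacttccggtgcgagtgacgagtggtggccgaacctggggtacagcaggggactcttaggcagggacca

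Factors that work with the proteasome were taken from lists on the ubiquitin system. Of 16 proteins that bind the particle or shuttle ubiquitin chains to it, 13 were measured. In embryonic fragments 7 of them were lower than in rest of brain and 2 higher, with the shuttles Ubqln2 (-1.61 ± 0.13) and Ubqln4 (-0.87 ± 0.12) falling most and the core assembly factor Pomp (0.82 ± 0.10) and the deubiquitinase Uchl5 (0.50 ± 0.10) rising. Among all tested genes 37.2% were lower and 28.9% higher. From embryonic to adult fragments 8 fell, Uchl5 by 1.06 ± 0.10 and the shuttle Rad23b by 0.86 ± 0.11 the most, and the adaptor Ecpas rose by 1.36 ± 0.11. Between the ages 29.7% of all tested genes were lower and 27.4% higher. Against rest of brain adult fragments were lower in 9, Ubqln2 and Ubqln4 the most (-1.70 and -1.65), and higher in Ecpas (0.91) and Pomp (0.43). In that comparison 42.9% of all tested genes were lower and 33.1% higher. With the mean over all probe sets of a gene, Uchl5 (2.28) and Ecpas (-0.47) changed sign between the ages. Of 6 ubiquitin and E1 genes, only the activating enzyme Uba6 was measured, and it was higher in embryonic fragments than in rest of brain by 0.89 ± 0.19, but lower with the mean over all its probe sets (-0.46, adjusted p = 0.0185).

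The Nfe2l1 route, as listed here, comprises the factor, the enzymes that release and process it and its partners. It also takes in the related factor Nfe2l2 and Keap1, which is neither such an enzyme nor a partner. Of its 9 genes 8 were measured. In embryonic fragments 5 were higher than in rest of brain, most of all the small partner Maff (5.49 ± 0.46) and the related stress factor Nfe2l2 (2.77 ± 0.18). Of all tested genes 28.9% were higher there. From embryonic to adult fragments 4 rose, led by the partner Mafk (1.51 ± 0.12) and Nfe2l1 itself (1.07 ± 0.12), and 3 fell, Maff (-1.99 ± 0.46), Mafg (-1.34 ± 0.19) and the segregase Vcp (-1.06 ± 0.14). The others that rose were Ngly1 and Keap1. Between the ages 27.4% of all tested genes were higher and 29.7% lower. Against rest of brain adult fragments were higher in 5, Maff (3.50) and Nfe2l2 (2.88) the most, and lower in Vcp (-1.05) and Mafg (-0.86). In that comparison 33.1% of all tested genes were higher and 42.9% lower. The direction of Vcp depended on the probe set: with the mean over all of them it was higher in adult fragments, by 1.86 against embryonic fragments and by 1.85 against rest of brain. While Nfe2l1 RNA rose between the ages, 26 of the 45 proteasome genes were lower, 3 higher and 16 not called, against 29.7% of all tested genes lower. These are levels of RNA of the whole sample, and a link between them was not tested.

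Genes of the interferon and antigen presentation route that go with the immunoproteasome were higher in fragments. Of 8 measured genes 6 were higher in embryonic fragments than in rest of brain, against 28.9% of all tested genes. All 8 were higher in adult than in embryonic fragments, against 27.4%. These counts hold genes that passed the minimum only through the groups where they were high, Psmb8, Psmb9 and Tap2 through the fragments of both ages and Nlrc5 through the adult arrays, and for these the differences from the groups under 4 are a description. The peptide transporter Tap2 was at least 8.24-fold and Psmb9 at least 7.28-fold above rest of brain in embryonic fragments. Nlrc5, an activator of these genes, was under 4 on all embryonic arrays and at least 16.9-fold higher in adult fragments. Tap1, the partner of Tap2, had a difference of 3.82 ± 0.41 between the ages, with 2 of the 3 embryonic fragment arrays under 4. The markers of microglia and macrophages that were higher in fragments moved with these genes from rest of brain to fragments. From embryonic to adult fragments none of these 6 markers was called higher, Mrc1 was lower and 5 were not called, with a median difference of 0.57. The part of these cells was not tested. Psmb8 and Psmb9 were at least 78.0-fold and 65.8-fold above rest of brain in adult fragments.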

How the data were processed

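RNA of 9 samples was measured on 9 arrays, 3 per group. The authors deposited log2 values, 1 per probe set and array, for which the submitters' processing notes name GCRMA 2.6.0 and R 2.4.1. The scale was read from the range of the values, and other steps were not given in the sources used here. Quantile normalization, part of GCRMA, hides a change in total RNA per cell. The labels call the samples biological repeats without naming litters, so p-values measure the spread between these samples, and precision is limited by the number of arrays.

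The platform annotation named 1 gene for 34958 of 45101 probe sets. The brightest of these represented each gene, and 12009 genes with at least 4 on 3 arrays were tested 2-sided by limma's lmFit and eBayes (limma 3.58.1, R 4.3.3; all 9 arrays, group as factor), with Benjamini-Hochberg adjustment over all genes. The script was tested on simulated data. A group under 4 on all its arrays was taken as at background, and folds against it are lower bounds set against 4.

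Same-numbered embryonic arrays had correlated deviations from their group means (0.19, 0.20 and 0.22). For differently numbered arrays of the embryonic tissues all values were negative, from -0.21 to -0.02. Embryonic fragments replicate 1 and rest of brain replicate 1 also reached 0.21 and 0.20 with adult replicate 2. Whether the number pairs samples cannot be told from these values. The labels do not say that the number pairs samples. It was left out of the main fit and entered only alternatives, as a block. The members and lists were chosen with earlier results of these data known. Values on every array are given, per comparison, for the 5 largest called differences in each direction, the largest of each role, and the catalytic and activator subunits, and of each pathway list the 2 largest in each direction are named; further genes were singled out after their values were seen. Alternatives changed the normalization, filter, floor, offset, probe sets, samples in the fit, weights, variance prior and block, or left out 1 array. Scanner files were not analysed here.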

Additional observations from a re-analysis of the deposited data

How the results depend on the processing

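Between the embryonic tissues, fitting these groups alone or with array weights gave 5 genes higher and 17 lower, and leaving out 1 array gave 1 to 4 higher and 8 to 15 lower. With the replicate number as a block the counts were 3 and 15 in the 6 embryonic arrays and 3 and 10 in all 9. Between the ages, 5 genes were higher with cyclic loess and 1 with the 2 groups alone or array weights; leaving out 1 array gave 1 to 4 higher and 22 to 27 lower. The median difference was -0.70 without probe sets of shared probes, where 37 genes remained. Against rest of brain, adult fragments were higher in 4 genes with the mean over all probe sets, in 1 with the 2 groups alone or the replicate block of all 9 arrays, and in 1 to 2 with 1 array left out. Cyclic loess moved the median of all genes from -0.17 to -0.03 in that comparison and that of the proteasome genes from -0.70 to -0.55. Other medians and counts of lower genes stayed within 1.5 times or the spread between replicates.

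Some genes changed sign with the probe set. The mean over probe sets took in all those of a gene, also those under the minimum. Between the embryonic tissues the mean over probe sets gave -0.46 for Uba6 and 0.51 for Ube3c, and leaving out shared probes 0.78 for Psma3 and 0.074 for Psmf1. Between the ages the mean gave 0.81 for Psma1, 0.29 for Psmc6, 2.28 for Uchl5, -0.47 for Ecpas and 1.86 for Vcp. Leaving out shared probes gave -0.29 for Psma6, -0.79 for Psmb3, 0.75 for Psmc6, -0.69 for Psmf1 and 1.02 for Txnl1. For adult fragments against rest of brain the mean gave 0.69 for Psma1, 0.44 for Psma3, -0.38 for Uba6, 2.51 for Uchl5, -0.64 for Ecpas and 1.85 for Vcp, and leaving out shared probes 1.04 for Psma3, -0.23 for Psma6 and 1.42 for Txnl1. The cause was not tested. With 3 arrays per group small differences cannot be told from 0, and values near 4 lie close to background.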
